A study of Rattus norvegicus with 6 samples.

Results

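Cytochrome P450 genes other than those of the Cyp2c and Cyp4a subfamilies and the main genes of bile acid and sterol synthesis were followed in rat liver after tienilic acid (TA), a diuretic that also lowers uric acid and that was taken off the market after cases of hepatitis. Members were the probe sets whose only gene symbol in the platform annotation begins with Cyp and a digit, without Cyp2c, Cyp4a, Cyp7a1, Cyp7b1, Cyp8b1, Cyp27a1 and Cyp51. This gave 49 of the 66 P450 probe sets with 1 symbol, for 43 of 14217 genes, among 31042 probe sets in all. The rule itself reads symbols and no expression value. Liver RNA of male Sprague Dawley rats weighing 210 to 230 g, whose age was not given in the sources used here, was measured on 6 Affymetrix Rat230_2 arrays. The groups were TA at 6 h (1 dose of 100 mg/kg by gavage, 2 animals with an array each), vehicle at 6 h (1 dose of sodium bicarbonate, 2 rats whose pooled RNA gave 1 array), TA at 24 h (100 mg/kg at 0 and 16 h, 2 animals with an array each) and vehicle at 24 h (sodium bicarbonate at 0 and 16 h, 2 rats whose pooled RNA gave 1 array). TA was itself dissolved in sodium bicarbonate, so that all groups received it. The series title asks about acute gene induction by TA, which the comparison of TA with vehicle at each time addresses.

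P450 enzymes are heme proteins that insert 1 atom of oxygen into drugs, steroids, fatty acids, retinoids and vitamins, mostly in the endoplasmic reticulum of hepatocytes and with electrons from P450 reductase. Enzymes of families CYP1, CYP2 and CYP3 clear most drugs, and their genes respond to the receptors AhR, CAR and PXR, while CYP4 enzymes hydroxylate fatty acids and leukotrienes. Other P450 enzymes make steroid hormones or inactivate retinoic acid. In humans TA is oxidised by a CYP2C enzyme to a reactive product.

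The deposited values are log2 array summaries, a kind of value in which differences between low signals are compressed. Probe sets with a mean over the 6 arrays above 2.82, the 40th percentile of all, were tested, and 34 of the 49 members, for 30 genes, passed this filter. Array medians lay between 3.27 and 3.31. The number of arrays limits the precision, and p-values rest on the spread between the 2 TA animals of each time, since the vehicle pools have no replicate. The TA animals of a time share 1 pool as their control, so that lying on the same side of it is not independent evidence. By the times in the fluidics settings of the arrays, TA animal 1 and the pool of 6 h shared the first run and the remaining 4 arrays followed in a later one, so that the 24 h comparison lies within 1 run and the 6 h comparison within a run is that of animal 1. Hepatocyte markers averaged 15.68 and 15.60 in TA livers at 6 h against 15.67 in vehicle, and 15.54 and 15.48 in TA livers at 24 h against 15.58 in vehicle. Of 2 adrenal cortex markers on the array none passed the filter.

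No P450 member differed from vehicle past the test threshold at either time. In limma's test over 18625 probe sets, 0 members had an adjusted p under 0.05 at 6 h, where 0% of all probe sets were called, and 0 members at 24 h, where 0.00537% were called (1 probe set, which has no gene symbol). Adjusted p-values of the members lay between 0.83 and 1.00 at 6 h and between 0.90 and 1.00 at 24 h. At an unadjusted p under 0.05, 0 members were higher and 1 lower in TA at 6 h, where 1.58% of all probe sets were higher and 4.25% lower, and 2 members were higher and 1 lower at 24 h, where 1.99% were higher and 3.3% lower. Over the 34 members the median log2 difference between TA and vehicle was -0.01 at 6 h, against -0.02 over all probe sets, and 0.11 at 24 h, against -0.01 over all. At 24 h it was 0.00 in animal 1 and 0.17 in animal 2. For the mean of both times and for the difference between the effects at 24 h and 6 h, 0 members were called as well, where 0.00537% of all probe sets were.

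By direction alone, 10 members lay above the vehicle pool in both TA animals at 6 h and 11 below it in both, where the shares over all probe sets were 21% and 36.3%. At 24 h 13 members lay above the pool in both animals and 5 below it in both, where the shares over all probe sets were 24.6% and 36.8%. The members' shares of 38.2% above and 14.7% below at 24 h thus leaned upward while all probe sets leaned downward. Members and all probe sets were not matched in level: 17 of 34 members had a mean of 10 or more, against 2580 of 18625 probe sets. The part of level in this contrast was not tested. Set against the pool of 6 h instead, the TA livers of 24 h had a median of -0.077 over the members, and with all 49 members, unfiltered, the median against their own pool was -0.0058. Sizes were compared as median absolute log2 differences from vehicle. The 17 members with a mean under 10 had 0.23 at 6 h and 0.24 at 24 h. Over all such probe sets these were 0.11 and 0.11. The 17 with a mean of 10 or more had 0.12 and 0.11, against 0.13 and 0.12. The part of level was not tested here either. Counts of 2-fold differences were too low to compare sizes. At least 2-fold above the pool in both animals were 0 members at 6 h (0.231% of all) and 0 at 24 h (0.236%). At least 2-fold below it in both were 1 member at 6 h (0.295% of all) and 0 at 24 h (0.344%). The 1 member was Cyp17a1. Cyp26a1 had a larger mean difference at 24 h, 2.44-fold higher, with animal 1 just short of 2-fold (0.98 and 1.59 on the log2 scale).

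**Figure D1:**
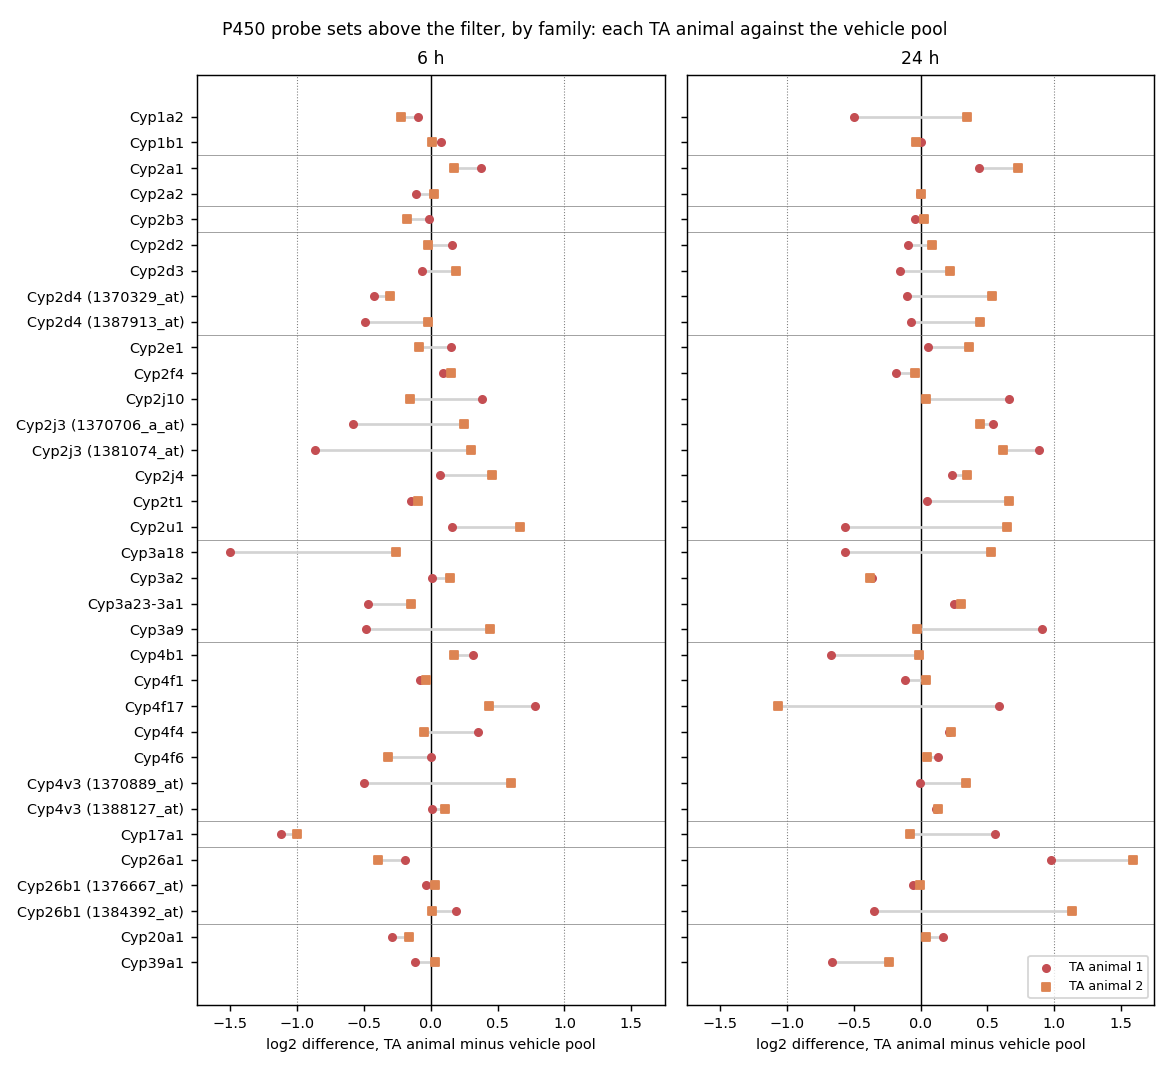
Each row is a P450 probe set above the filter, ordered by family, and the x axis gives the log2 difference of a TA animal from the vehicle pool at 6 h (left) and at 24 h (right). Circles are animal 1, squares animal 2, and dotted lines mark 2-fold: Cyp17a1 lies at or beyond the lower line in both animals at 6 h, at -1.12 in animal 1, and Cyp26a1 at 0.98 and 1.59 at 24 h.

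Cyp26a1, which hydroxylates and so inactivates retinoic acid and is itself induced by retinoic acid in rodents and humans, had the largest difference of the members. It was at 6.40 and 7.01 in TA livers at 24 h, against 5.42 in vehicle. It was at 5.17 and 4.97 in TA livers at 6 h, against 5.36 in vehicle. Both TA livers of 24 h thus stood above the 4 other arrays, while both of 6 h stood below them. The log2 difference from vehicle was 1.28 ± 0.31 at 24 h (SE, n = 2 TA animals), or 2.44-fold higher, and -0.29 ± 0.31 at 6 h, with limma adjusted p-values of 0.90 and 1.00. The difference between those effects was 1.58 ± 0.44 with a limma adjusted p of 1.00. Among all probe sets, 0.188% had both TA livers of 24 h at least 1.5-fold above the 4 other arrays, and Cyp26a1 was the 1 member among them. At least 1.5-fold below the 4 other arrays at 24 h were 0 members (0.252% of all). For the TA livers of 6 h, 0 members were above (0.0805% of all) and 0 below (0.123%). As Cyp26a1 was singled out for its large difference, the share describes its pattern and is not a test of it. Against TA at 6 h, its level in TA at 24 h was 3.10-fold higher (1.63 ± 0.25 on the log2 scale, limma adjusted p = 0.19).

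The promoter of Cyp26a1 is shown because a retinoic acid response element was found in it. It spans chr1:244883572-244883871 of the rat build GRCr8, on the plus strand, from RefSeq. Capitals mark the response element, read on the opposite strand as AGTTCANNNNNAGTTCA and starting 92 bases before the gene start, and the TATA box TATAAA.
Cyp26a1: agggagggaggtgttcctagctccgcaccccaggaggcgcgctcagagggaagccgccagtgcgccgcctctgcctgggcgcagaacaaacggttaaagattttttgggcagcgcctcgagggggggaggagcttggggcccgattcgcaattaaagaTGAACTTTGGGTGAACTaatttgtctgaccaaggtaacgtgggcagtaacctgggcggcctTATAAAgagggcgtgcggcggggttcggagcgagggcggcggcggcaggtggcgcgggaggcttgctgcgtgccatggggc
On either strand, this direct repeat occurred in 3 of 33469 rat promoters of 300 bases (0.00896%) and in 1 of the 35 promoters found for the 43 P450 genes. Its single repeat unit AGTTCA, part of the longer motif, occurred in 14.5% of all promoters and in 8 of the 35, and TATAAA in 14.2% of all and in 8 of the 35. Only this exact spelling of the repeat was searched, so response elements with other letters in the repeat units were not counted. The spelling is the one Cyp26a1 holds, and the share is not a test that such elements are particular to it. These are matches of letters, and binding was not measured.

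Cyp26b1, the other retinoic acid hydroxylase, had probe sets that disagreed. Probe set 1384392_at was at 5.88 and 7.37 in TA livers at 24 h against 6.23 in vehicle, so that the animals lay on either side of the pool, and at 7.34 and 7.16 in TA livers at 6 h against 7.15 in vehicle. Probe set 1376667_at stayed between 3.46 and 3.55 on all 6 arrays, close to the low end of the table.

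The Cyp3a enzymes, which oxidise many drugs and steroids, stood on different sides of the vehicle pool at 24 h. Cyp3a2, a form that predominates in male rats, was at 14.78 and 14.76 in TA livers at 24 h against 15.14 in vehicle, and at 15.03 and 15.15 in TA livers at 6 h against 15.01 in vehicle. Its TA livers of 24 h were below the 4 other arrays. The log2 difference was -0.37 ± 0.11 at 24 h (limma adjusted p = 0.91). Cyp3a23-3a1, the form induced through PXR in rats, was at 14.11 and 14.17 in TA livers at 24 h against 13.86 in vehicle, and at 13.53 and 13.85 in TA livers at 6 h against 14.00 in vehicle. It was above the pool in both animals at 24 h (0.28 ± 0.17) and below it in both at 6 h (-0.31 ± 0.17), with limma adjusted p-values of 1.00 and 0.99. The difference between these effects was 0.58 ± 0.25 (limma adjusted p = 1.00).

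Both genes carry a PXR element in the promoter, which is why these are set side by side. The element is the direct repeat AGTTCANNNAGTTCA, in capitals and read here on the opposite strand. It starts 144 bases before the start of Cyp3a23-3a1 (chr12:14398754-14399053, minus strand, GRCr8) and 131 bases before that of Cyp3a2 (chr12:14343808-14344107, minus strand, GRCr8), with sequences from RefSeq. Both positions count from the start used for the promoter. For Cyp3a2 this lies inside the RefSeq gene, which reaches to 14343886, so the positions are not fully comparable.
Cyp3a23-3a1: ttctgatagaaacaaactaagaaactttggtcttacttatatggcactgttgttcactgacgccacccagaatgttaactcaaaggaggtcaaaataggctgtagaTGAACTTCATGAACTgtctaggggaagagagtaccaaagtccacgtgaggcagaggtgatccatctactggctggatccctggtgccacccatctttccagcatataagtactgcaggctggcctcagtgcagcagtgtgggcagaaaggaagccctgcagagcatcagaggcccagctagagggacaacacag
Cyp3a2: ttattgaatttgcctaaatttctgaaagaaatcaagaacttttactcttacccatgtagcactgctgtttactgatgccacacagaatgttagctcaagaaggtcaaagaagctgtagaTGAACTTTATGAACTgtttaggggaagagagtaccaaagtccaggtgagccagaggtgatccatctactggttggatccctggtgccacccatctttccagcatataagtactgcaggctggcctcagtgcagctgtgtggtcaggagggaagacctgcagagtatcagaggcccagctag
In a global alignment the promoters were identical at 80.6% of 315 columns. The repeat was found on either strand in 2 of 33469 rat promoters (0.00598%), and both were these. Only this exact spelling was searched, so the share does not tell how common PXR elements with other letters in the repeat units are. The spelling is the one these promoters hold, and the share is not a test that PXR elements are particular to them. The unit AGTTCA is part of it and was also found in the promoters of Cyp3a18 and Cyp3a9. It is not particular to Cyp3a genes, with 14.5% of all promoters and 8 of the 35, Cyp26a1, Cyp2g1, Cyp2j3 and Cyp2j4 among them.

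Cyp3a18, another form predominant in male rats, differed more between animals than between groups. It was at 12.59 and 13.83 in TA livers at 6 h against 14.09 in vehicle, and at 12.83 and 13.92 in TA livers at 24 h against 13.39 in vehicle. Both TA livers of 6 h were below their pool, by -1.50 in animal 1 and -0.26 in animal 2, and those of 24 h lay on either side of theirs. The log2 differences were -0.88 ± 0.76 and -0.02 ± 0.76, with limma adjusted p-values of 1.00 for both. Cyp3a9 was at 8.76 and 9.69 in TA livers at 6 h against 9.24 in vehicle, and at 9.95 and 9.02 in TA livers at 24 h against 9.04 in vehicle, so that its groups overlapped at both times.

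**Figure D2:**
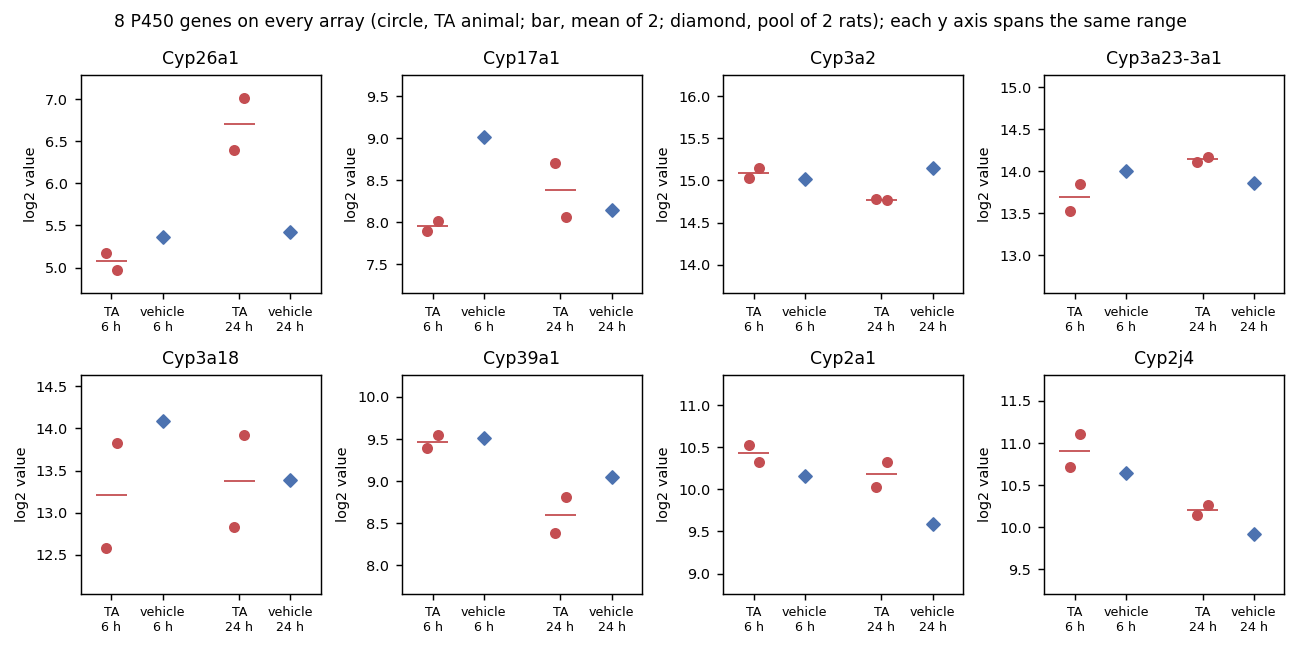
Log2 values of 8 P450 genes on every array, with TA livers as circles (bar, mean of 2 animals) and vehicle pools as diamonds. Cyp26a1 stands at 6.40 and 7.01 in TA livers of 24 h and between 4.97 and 5.42 elsewhere, whereas Cyp17a1 ranges from 7.90 to 8.71 on 5 arrays, with the pool of 6 h above these at 9.02.

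Cyp17a1, the 17-alpha-hydroxylase and lyase of steroid hormone synthesis, was the member at least 2-fold lower in both TA animals at 6 h. It was at 7.90 and 8.01 in TA livers at 6 h against 9.02 in vehicle, and at 8.71 and 8.07 in TA livers at 24 h against 8.15 in vehicle. The vehicle pool of 6 h was the highest of the 6 arrays, and the TA livers of 6 h were only 0.06 below the lowest of the others. The log2 difference at 6 h was -1.06 ± 0.31, or 2.09-fold lower (limma adjusted p = 0.83), and 0.24 ± 0.31 at 24 h (limma adjusted p = 1.00). Within the first fluidics run, animal 1 differed from the pool by -1.12. Against the pool of 24 h, the TA livers of 6 h had -0.19. The other members of steroid hormone synthesis were Cyp11a1, Cyp11b1, Cyp19a1 and Cyp21a1, and all 6 probe sets of these were below the filter.

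Among the Cyp2 genes, Cyp2a1, the testosterone 7-alpha-hydroxylase of the rat, was above the vehicle pool in both animals at both times. It was at 10.53 and 10.33 in TA livers at 6 h against 10.16 in vehicle, and at 10.03 and 10.33 in TA livers at 24 h against 9.59 in vehicle. The log2 differences were 0.27 ± 0.19 and 0.58 ± 0.19 (limma adjusted p = 1.00 and 0.93), and the mean over both times was 0.43 ± 0.13 (limma adjusted p = 0.75). Against the pool of the other time, Cyp2a1 had 0.84 at 6 h and 0.023 at 24 h. On no other array was it lower than in the vehicle pool of 24 h. Cyp2a2, a steroid hydroxylase predominant in male rats, stayed between 14.12 and 14.25 on all 6 arrays. Members above the pool in both animals at both times were 3 of 34, where the share over all probe sets was 6.92%, and 0 were below it at both times (14.1% of all). Cyp2a1 was joined by Cyp2j4 and by probe set 1388127_at of Cyp4v3.

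The Cyp2j enzymes, epoxygenases of arachidonic acid, were higher in both TA animals than in vehicle at 24 h on all 4 probe sets above the filter, where 24.6% of all probe sets were. Cyp2j3 was at 9.48 and 9.21 in TA livers at 24 h against 8.60 in vehicle on probe set 1381074_at, and at 11.20 and 11.10 against 10.65 on probe set 1370706_a_at. The log2 differences were 0.75 ± 0.55 and 0.50 ± 0.39 (limma adjusted p = 1.00 for both). At 6 h the TA livers lay on either side of the pool on both probe sets, at 7.73 and 8.90 against 8.60 and at 10.55 and 11.38 against 11.13. Cyp2j4 was at 10.15 and 10.26 in TA livers at 24 h against 9.91 in vehicle, and at 10.72 and 11.11 in TA livers at 6 h against 10.65 in vehicle, with log2 differences of 0.29 ± 0.21 and 0.26 ± 0.21. Cyp2j10 was at 5.58 and 4.96 in TA livers at 24 h against 4.92 in vehicle. The direction at 24 h did not hold for all of these against the pool of 6 h: Cyp2j4 had -0.45 and Cyp2j10 -0.17, while Cyp2j3 had 0.75 on probe set 1381074_at and 0.017 on probe set 1370706_a_at.

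The rest of the Cyp2 family, like the Cyp2a and Cyp2j genes, showed no difference past the test. Cyp2e1, which oxidises ethanol and paracetamol, was at 15.07 and 14.83 in TA livers at 6 h against 14.92 in vehicle, and at 14.86 and 15.17 in TA livers at 24 h against 14.81 in vehicle. Cyp2t1 was at 8.85 and 9.47 in TA livers at 24 h against 8.80 in vehicle (0.36 ± 0.30, limma adjusted p = 1.00, and -0.19 against the pool of 6 h). Cyp2u1, a fatty acid hydroxylase, was at 7.02 and 7.53 in TA livers at 6 h against 6.86 in vehicle (0.42 ± 0.61, and -0.0082 against the pool of 24 h), and its TA livers of 24 h lay on either side of the pool. Of the drug-metabolising Cyp2d genes, Cyp2d2 stayed between 14.42 and 14.67 on all arrays and Cyp2d3 between 13.97 and 14.41. Cyp2d4 was below the pool of 6 h in both animals on both probe sets, at 8.68 and 8.80 against 9.11 and at 6.41 and 6.88 against 6.90, with log2 differences of -0.36 ± 0.31 and -0.26 ± 0.33, which were 0.53 and 0.24 against the pool of 24 h. Cyp2b3 stayed between 14.29 and 14.55 and Cyp2f4, whose mouse relative activates naphthalene, between 10.36 and 10.68.

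In the Cyp1 family, Cyp1a1, the classical target of the aryl hydrocarbon receptor AhR, was below the filter and between 2.39 and 2.43 on all 6 arrays. Cyp1a2, which oxidises aromatic amines and caffeine, was at 13.85 and 13.72 in TA livers at 6 h against 13.95 in vehicle, and at 13.20 and 14.05 in TA livers at 24 h against 13.70 in vehicle. The animals of 24 h lay on either side of the pool and further apart than the groups. Cyp1b1 stayed between 2.92 and 3.04, just above the filter. Of the AhR targets outside the P450 genes, 2 passed the filter and 0 were called. Nqo1, a quinone reductase, had log2 differences of 0.71 ± 0.15 at 6 h and 0.13 ± 0.15 at 24 h, and Tiparp -0.45 ± 0.16 and 0.25 ± 0.16.

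Cyp39a1, which hydroxylates oxysterols on the way to bile acids, was below the pool in both TA animals at 24 h. It was at 8.38 and 8.81 in TA livers at 24 h against 9.04 in vehicle, and at 9.39 and 9.54 in TA livers at 6 h against 9.51 in vehicle. Both TA livers of 24 h were below the 4 other arrays, as were those of Cyp3a2 and Cyp4b1. Such members were 3 of 34, where the share over all probe sets was 12%. The log2 difference was -0.45 ± 0.23 at 24 h, or 1.36-fold lower (limma adjusted p = 1.00). Cyp20a1, a P450 without a settled substrate, was at 9.15 and 9.28 in TA livers at 6 h against 9.44 in vehicle.

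Of the Cyp4 genes, Cyp4b1 was at 4.16 and 4.81 in TA livers at 24 h against 4.83 in vehicle, and at 5.45 and 5.31 in TA livers at 6 h against 5.14 in vehicle, with limma adjusted p-values of 1.00 at both times. It was thus above the pool in both animals at 6 h and below it in both at 24 h. Cyp4f17 was at 5.89 and 5.54 in TA livers at 6 h against 5.11 in vehicle (0.61 ± 0.78), and at 5.82 and 4.16 in TA livers at 24 h against 5.23 in vehicle. The leukotriene and fatty acid hydroxylases Cyp4f1, Cyp4f4 and Cyp4f6 had log2 differences between -0.16 and 0.22 at both times. Cyp4v3 had 0.05 at 6 h on both probe sets, and 0.12 and 0.17 at 24 h.

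The TA livers of 24 h were also compared with those of 6 h, the comparison with 2 animals on each side. Time and the second dose at 16 h cannot be told apart in it, and animal 1 of 6 h was in another fluidics run. Again 0 members were called, where 0% of all probe sets were called, with limma adjusted p-values between 0.19 for Cyp26a1 and 1.00. At an unadjusted p under 0.05, 2 members were higher and 4 lower at 24 h, where 7.89% of all probe sets were higher and 6.93% lower. Both animals of 24 h were above both of 6 h for 5 members and below both for 8, where the shares over all probe sets were 20.6% and 22%. Besides Cyp26a1, the higher members included Cyp2j3 on probe set 1381074_at (1.03 ± 0.45) and Cyp3a23-3a1 (0.45 ± 0.14). The lower members included Cyp4b1 (-0.90 ± 0.26), Cyp39a1 (-0.87 ± 0.19), Cyp2j4 (-0.71 ± 0.17) and Cyp3a2 (-0.32 ± 0.09), with limma adjusted p-values between 0.22 and 0.28. From the vehicle pool of 6 h to that of 24 h, Cyp4b1 had -0.31, Cyp39a1 -0.47, Cyp2j4 -0.74 and Cyp3a2 0.13. Of the higher members, Cyp26a1 had 0.06, Cyp2j3 on probe set 1381074_at -0.00099 and Cyp3a23-3a1 -0.14.

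The vehicle pools of 24 h and 6 h differed from each other. The pool of 24 h was below that of 6 h for 28 of the 34 members (82.4%), where the share over all probe sets was 62.3%, and the median log2 difference was -0.18 over the members and -0.01 over all. For Cyp2j4, Cyp17a1, Cyp3a18, probe set 1370329_at of Cyp2d4 and probe set 1384392_at of Cyp26b1 it was at least 1.5-fold lower (5 members, 14.7%, against 6.56% of all). With 1 pool at each time this difference has no replicate check, and since the pools were in different fluidics runs, time and run cannot be told apart in it. Dbp, a clock-driven factor that controls P450 genes in rodent liver, was at 4.91 and 3.56 in TA livers and 4.09 in vehicle at 24 h, and at 7.80 and 6.85 in TA livers and 8.51 in vehicle at 6 h. The part of the clock or of the run in the P450 differences was not tested.

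**Figure D3:**
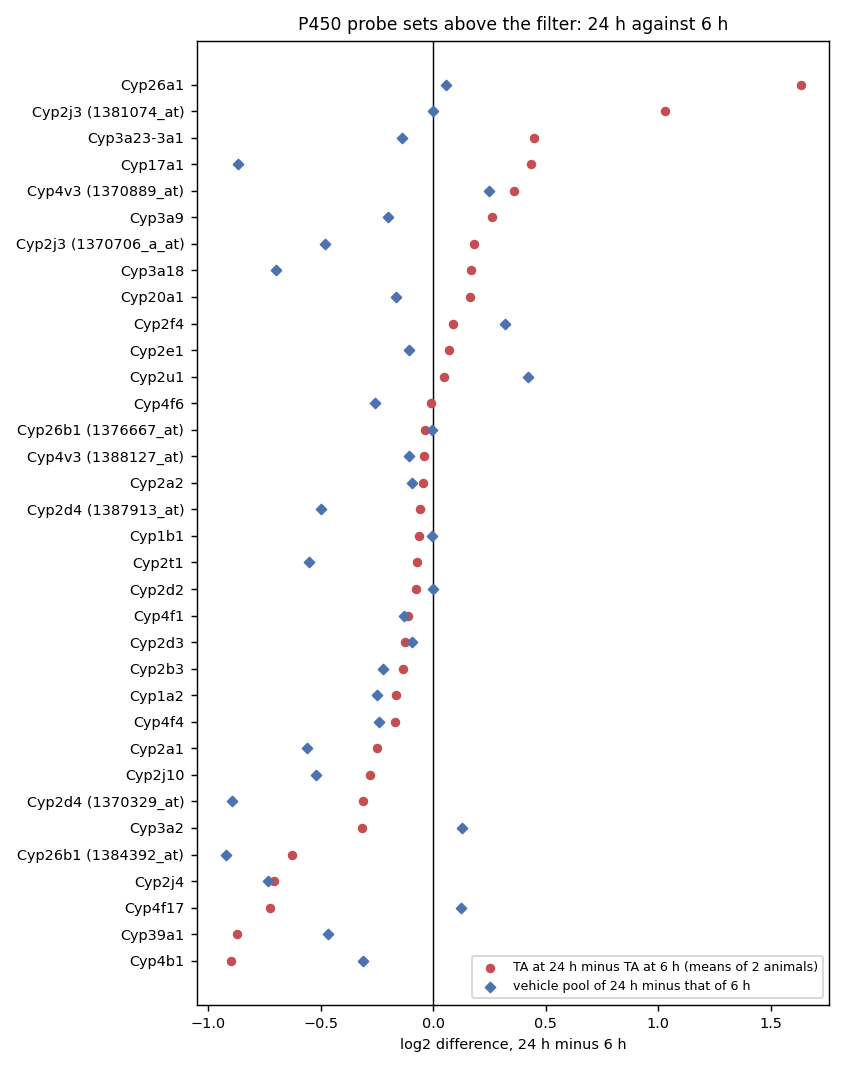
Log2 difference of 24 h from 6 h for each P450 probe set above the filter, in TA livers (circles, means of 2 animals) and in vehicle pools (diamonds, 1 pool each). Cyp26a1 has 1.63 in TA and 0.06 in vehicle, and Cyp2j4 has -0.71 in TA and -0.74 in vehicle.

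The TA animals of a time also differed from each other. At 24 h the median absolute difference between the animals was 0.30 on the log2 scale over the members and 0.14 over all probe sets, and 4 members differed at least 2-fold (2.89% of all probe sets did). By level, the 17 members with a mean under 10 had 0.62 against 0.14 over all such probe sets. The 17 with a mean of 10 or more had 0.11 against 0.16. Below 10 the members and all probe sets were not matched in level, and differences between low signals are compressed. The part of level in the higher value was not tested. At 6 h the medians were 0.19 and 0.14, with 3 members at least 2-fold apart (2.24% of all). At 24 h animal 2 was above animal 1 for 24 of the 34 members (70.6%), where the share over all probe sets was 40.9%. Animal 1 was the lowest of the 6 arrays for 12 members (35.3%, against 16.4% of all). The members at least 2-fold apart were probe set 1384392_at of Cyp26b1, Cyp2u1, Cyp3a18 and, in the other direction, Cyp4f17.

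Pericentral hepatocyte markers, from the zone around the central vein where many P450 genes are expressed, showed a difference in the same direction. At 24 h all 6 of those above the filter were higher in animal 2, by a median of 0.43, and at 6 h 2 of 6 were. Glul, glutamine synthetase, was at 11.06 and 12.36 in TA livers at 24 h against 11.93 in vehicle. Nr1i3, the receptor CAR and not one of these markers, was at 3.67 and 6.24 in TA livers at 24 h against 4.42 in vehicle. Kupffer cell markers were also higher in animal 2 for 5 of 5 and sinusoidal endothelium for 5 of 5, while periportal markers were for 4 of 7. Erythroid markers were higher in animal 2 for 2 of 2, by a median of 1.17, general hepatocyte markers for 1 of 7 and cholangiocyte markers for 0 of 2. Set against the vehicle pool of 24 h, stellate cell and fibroblast markers were lower in both TA animals for 4 of 5 (36.8% of all probe sets were), with a mean of 7.70 and 7.72 in TA livers against 8.38 in vehicle. Periportal markers were above that pool in both for 5 of 7 (24.6% of all), with a median log2 difference of 0.36. Sds, serine dehydratase, stood apart at 10.94 and 10.68 in TA livers against 6.73 in vehicle. At 6 h Sds was at 9.22 and 7.96 in TA livers and 10.16 in vehicle, so its lowest array was the pool of 24 h. Periportal markers averaged 13.52 and 13.48 in TA livers at 24 h, against 12.69 in the pool of 24 h and 13.34 in that of 6 h. The part of these in the P450 values was not tested, and in whole liver fewer cells of a type and less RNA per cell cannot be told apart.

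**Figure D4:**
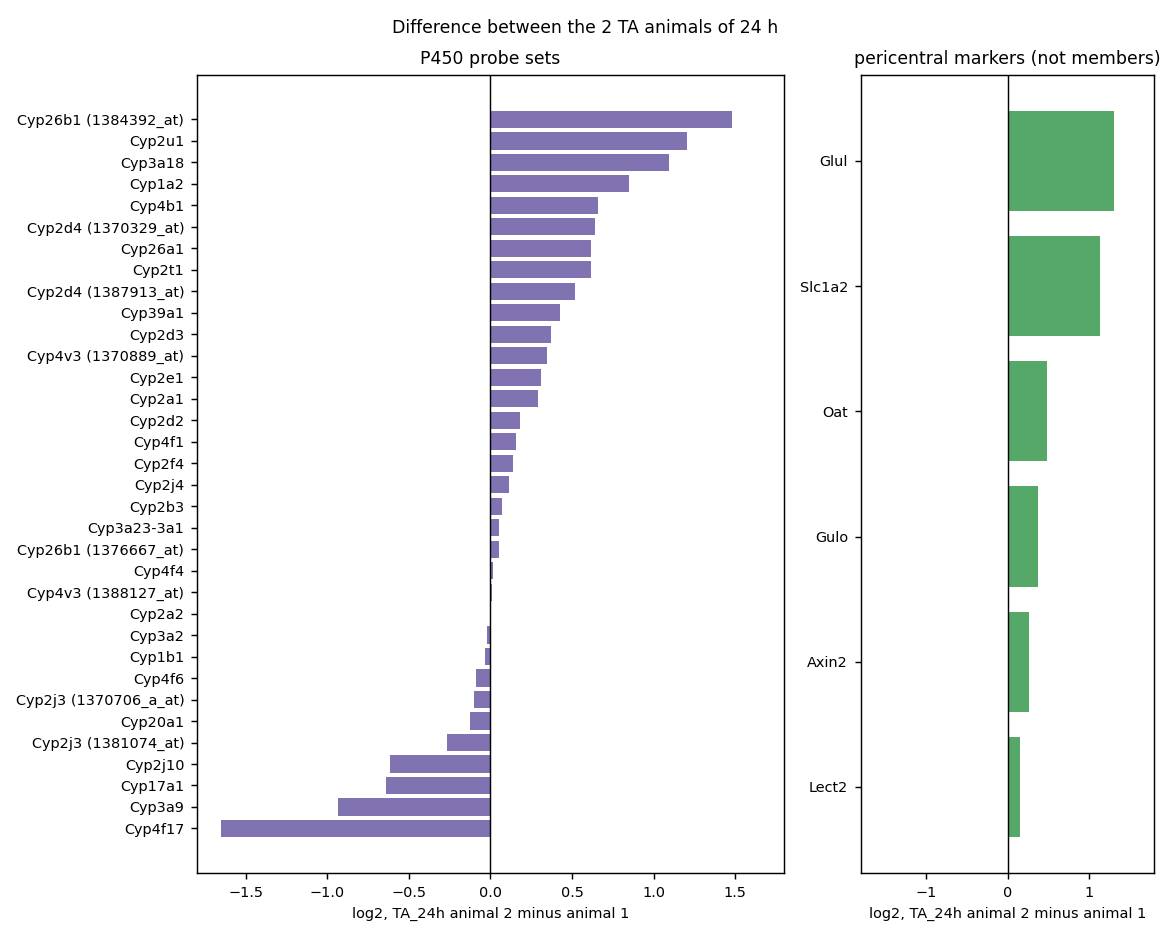
Log2 difference of TA animal 2 from TA animal 1 at 24 h for the P450 probe sets above the filter (left) and for pericentral markers that are not members (right). Bars reach from -1.65 for Cyp4f17 to 1.48 for Cyp26b1, and all 6 pericentral markers are above 0.

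Genes that serve or control the P450 enzymes were described from lists, with 0 genes called in limma's test at either time. Of the electron donors, 5 passed the filter, with a median log2 difference of -0.06 at 6 h and 0.04 at 24 h. Por, P450 reductase, was at 9.39 and 9.67 in TA livers at 6 h against 10.14 in vehicle (-0.61 ± 0.27, limma adjusted p = 0.92) and on either side of the pool at 24 h. Of 10 genes of heme synthesis and breakdown, 2 were above the pool in both animals and 3 below it at 6 h, where 21% and 36.3% of all probe sets were, and 4 above and 3 below at 24 h, where 24.6% and 36.8% were. Alas1, the first enzyme of heme synthesis, was at 11.44 and 11.91 in TA livers at 6 h against 11.97 in vehicle, and at 12.47 and 12.52 in TA livers at 24 h against 12.43 in vehicle.

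Of 14 receptors and transcription factors that control P450 genes, 9 were below the vehicle pool in both TA animals at 6 h and 1 above it, with a median of -0.20, against 36.3% and 21% of all probe sets. At 24 h 5 were above in both and 4 below in both, with a median of 0.09, against 24.6% and 36.8% of all probe sets. Onecut1, a hepatocyte factor also called HNF6, had the largest difference from vehicle of the list at 6 h. It was at 8.60 and 9.81 in TA livers against 11.78 in vehicle (-2.57 ± 0.57, limma adjusted p = 0.77). At 24 h it was at 10.31 and 10.19 in TA livers against 8.40 in vehicle (1.85 ± 0.57). Against the pool of the other time, its TA livers lay on the opposite side at both times. Bcl6, a repressor of female-biased genes in male mouse liver, had animals of 6 h on either side of the pool and -3.03 ± 1.67 at 24 h (limma adjusted p = 1.00). Its TA livers of 24 h were at 8.92 and 6.97, against 10.97 in their own pool and 7.37 in that of 6 h. At 6 h the lower ones also included Dbp (-1.19 ± 0.76), Cebpb at 9.19 and 9.87 in TA livers against 10.43 in vehicle (-0.90 ± 0.33) and Nr1i2, the receptor PXR, at 7.34 and 7.23 against 7.51 (-0.23 ± 0.33). The pool of 24 h was at 9.50 for Cebpb and 7.06 for Nr1i2. Against it, these TA livers lay on either side for Cebpb and above for Nr1i2. Of 9 targets of CAR and PXR outside the P450 genes, 3 were above the pool in both animals and 4 below it at 6 h, and 3 above and 1 below at 24 h, beside the same shares of all probe sets. Ephx1, microsomal epoxide hydrolase, was above in both at both times (0.40 ± 0.30 and 0.29 ± 0.30). Against the pool of 6 h, its TA livers of 24 h lay on either side. Abcb1a, a drug efflux pump, was at 6.43 and 6.48 in TA livers at 6 h against 7.22 in vehicle (-0.76 ± 0.16). At 24 h it was at 6.05 and 5.76 in TA livers against 5.56 in vehicle (0.35 ± 0.16). Against the pool of the other time, Abcb1a lay on the opposite side at both times. Retinoid genes other than P450, a list added after the value of Cyp26a1 was seen, had a median of -0.03 over 9 genes at 24 h, with 3 above the pool in both animals and 2 below it. The retinoic acid receptor gene Rarb was below it in both, at 10.80 and 10.56 in TA livers at 24 h against 10.95 in vehicle. Dhrs3, a retinaldehyde reductase, was above it in both at 24 h (0.18 ± 0.17) and at 6 h (0.26 ± 0.17), and so was Rbp4, the retinol carrier of blood, at 24 h (0.17 ± 0.09).

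The 15 members below the filter belong to 13 genes. Apart from Cyp4f5 and Cyp2s1, these stayed between 1.83 and 2.63 and varied by at most 0.07 across the 6 arrays. Besides the steroid hormone genes and Cyp1a1 they were Cyp2a3, Cyp2b12, Cyp2b21, Cyp2g1, Cyp27b1, the vitamin D hydroxylase of the kidney, and Cyp46a1, the cholesterol 24-hydroxylase of the brain. Cyp2s1 was between 2.63 and 2.91. Cyp4f5 was at 2.40 and 2.26 in TA livers at 6 h against 2.92 in vehicle, and at 2.24 and 2.21 in TA livers at 24 h against 2.25 in vehicle. At this low end of the table the arrays do not resolve differences.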

How the data were processed

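The deposited table holds log2 array summaries made by the authors. RMA and GCRMA are both named in the submitters' processing notes, with R 2.0.1 and affy 1.5.8, and neither is said to have made the table. Instrument settings, deposited as another kind of file, gave the fluidics runs.

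The 57 control probe sets were left out. Gene symbols came from the platform annotation, which can be old, and all 49 members were found unchanged in the RefSeq table of GRCr8 by gene identifier. Another 7 P450 probe sets carry several symbols, Cyp2b1 and Cyp2b2 among them, and were not named.

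In R 4.3.3, limma 3.58.1 (lmFit, eBayes) fitted a mean per group to all 6 arrays and the 18625 probe sets above the 40th percentile, with 2 residual and 1.60 prior degrees of freedom. P-values are two-sided, adjusted by the Benjamini-Hochberg method over all of these and called under 0.05. Labels do not say whether animals shared a cage, and 8 rats contributed.

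Members and lists were chosen with earlier results of these data known. Members named with values were those at least 2-fold apart from the pool in both animals, the 5 furthest each way at each time and between times, and 17 fixed names, of which Cyp2b1, Cyp2b2 and Cyp2d1 had no probe set of their own. Cyp2j10, Cyp2d3, Cyp2b3, Cyp4f1, Cyp4f4, Cyp4f6 and Cyp4v3 fall outside this rule and complete their families, as do the members below the filter. Genes outside the members were named after their values were seen. List genes are represented by the probe set with the highest mean. Alternatives covered the filter, the moderation of variances, normalization, the control group, the fluidics run, the replicate number and leaving out TA arrays.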

Additional observations from a re-analysis of the deposited data

How the results depend on the processing

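No setting called a P450 member. Over all probe sets, 0 were called at 6 h and 1 against the vehicle pool of 24 h, and the number of arrays limits what can be called. At 24 h, for the mean of the times and for the difference of effects, the 1 call was a probe set outside the members. It went to 0 at 24 h with the fluidics run as a block, both pools as 1 control group, the 60th percentile as filter and the pool of 6 h, and to 2 with an intensity trend. For the mean it went to 0 with the run block, both pools as 1 group, the 60th percentile and an additive model, and to 2 with the trend. For the difference it went to 0 with the run block and the 60th percentile. Leaving out each TA array in turn gave 0 to 2 calls at 24 h and 0 to 0 for the mean and the difference. The replicate block gave 0 calls in all 3. Same-numbered animals are different rats whose deviations correlated at -0.08 over 18625 probe sets, so the numbers do not pair them.

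The median over the members at 6 h, -0.01, was 0.057 with both pools as 1 group, 0.049 with quantile normalization, 0.11 against the pool of 24 h and -0.076 with the replicate block. At 24 h, 0.11 became -0.017 with both pools as 1 group, -0.077 against the pool of 6 h, -0.0058 over all 49 members with no filter and 0.050 with the replicate block, and leaving out each TA array gave 0.0015 to 0.17, the lowest without animal 2 of 24 h. The upward lean at 24 h thus held under some of these settings and not under others.

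Both TA animals lay on 1 side of the pool for 21 members at 6 h and 18 at 24 h, and only these were given a direction. Against the pool of the other time, 9 of the 21 and 7 of the 18 turned. At 6 h these were Cyp1a2 (0.089), Cyp2b3 (0.13), Cyp2d4 (0.53 and 0.24), Cyp2f4 (-0.20), Cyp2t1 (0.43), Cyp2u1 (-0.0082), Cyp3a2 (-0.054) and Cyp4f1 (0.071), and at 24 h Cyp20a1 (-0.061), Cyp2f4 (0.21), Cyp2j4 (-0.45), Cyp2j10 (-0.17), Cyp2t1 (-0.19), Cyp4f4 (-0.019) and Cyp4f6 (-0.17). With both pools as 1 group, the direction turned at 6 h for Cyp2b3 (0.014), probe set 1370329_at of Cyp2d4 (0.081), Cyp2f4 (-0.040), Cyp2t1 (0.16) and Cyp4f1 (0.0068), and at 24 h for Cyp2f4 (0.047), Cyp2j4 (-0.078) and Cyp4f6 (-0.038). With the replicate block it turned at 6 h for Cyp2u1 (-0.014) and probe set 1384392_at of Cyp26b1 (-0.22). Of the other settings, only centring arrays on their median and quantile normalization could have turned these directions, and they turned 0. The intensity trend, robust moderation and the filters leave the log2 difference as it is. Leaving out a TA array or blocking by run leaves it unchanged or gives 1 animal's own difference. None of these could turn a direction that both animals share. Vehicle arrays could not be left out, since each is its group. The cause of each was not tested.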

Other observations

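P450 genes often lie side by side in the genome, and by the RefSeq table of GRCr8 members that neighbour each other did not all lie on the same side of the vehicle pool. On chromosome 1, a group of 10 member genes from Cyp2s1 to Cyp2t1 had 5 genes above the filter, of which 2 were above the vehicle pool in both TA animals at 24 h and 1 below it. On chromosome 5 the Cyp2j genes were above it on 4 of 4 probe sets at 24 h, where 24.6% of all probe sets were, although Cyp2j4 (-0.45) and Cyp2j10 (-0.17) were below the pool of 6 h. The vehicle pool of 24 h was below that of 6 h on 4 of 4 of these probe sets. The Cyp2d genes on chromosome 7 had 0 of 4 probe sets on the same side in both animals at 24 h. On chromosome 12, Cyp3a23-3a1 was above the pool in both animals at 24 h and Cyp3a2 below it in both.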
